A study of Saccharomyces cerevisiae with 8 samples.

Results

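The main hexose carriers and glucose sensors of budding yeast were taken by name as 9 of the 6596 gene models in a table of read counts: the carriers HXT1, HXT2, HXT3, HXT4, HXT5, HXT6 and HXT7 and the sensors SNF3 and RGT2. All 9 passed the filter on low counts, which left 6558 models. Poly(A)-selected RNA was sequenced from 4 mcd1-1 samples and 4 wild-type (WT) samples, with the letters A to D for the replicates. The kleisin subunit of the cohesin ring is the product of MCD1 (SCC1), of which mcd1-1 is a mutant form. Both strains are derivatives of W303-1a, haploid yeast of the a mating type, and both grew in YPD, a rich medium with glucose, at 31 °C for 2 generations in log phase. The labels name no other allele or agent and do not say whether the replicates were separate cultures or how many clones stand behind a group, so a p-value here reflects only how these samples varied, which may be technical.

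Yeast takes up glucose by facilitated diffusion through Hxt proteins, which differ in affinity. Hxt1 and Hxt3 are low-affinity carriers used when glucose is plentiful, Hxt2, Hxt6 and Hxt7 are high-affinity carriers known from low glucose, and Hxt4 and Hxt5 are placed here in between, although classifications of Hxt4 vary. Hxt5 is known for its expression in slow growth and under stress rather than for a response to the glucose level. Snf3 and Rgt2 resemble carriers but act as sensors. Through the kinases Yck1 and Yck2 they lead to the loss of Mth1 and Std1, the partners of the repressor Rgt1, so that HXT genes are released from repression. When glucose is high, Mig1 represses genes of the high-affinity carriers and SNF3, and the kinase Snf1 keeps Mig1 inactive when glucose is low.

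HXT6 and HXT7 are nearly the same sequence, which bears on every value given for either of them. Their coding sequences, in the RefSeq genome of build R64, are both 1713 bases long and differ at 3 bases, or 99.8% identity, and the first 1631 bases are identical. Counted from the A of the start codon, with the HXT6 base first, the differences are T1632C, G1666A and T1677C. The last 90 bases of each coding sequence are shown with the differing bases in capitals, for HXT6 from chrIV:1159608-1159697 and for HXT7 from chrIV:1154216-1154305, both on the minus strand.
HXT6: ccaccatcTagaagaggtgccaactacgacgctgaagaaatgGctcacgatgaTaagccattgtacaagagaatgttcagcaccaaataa
HXT7: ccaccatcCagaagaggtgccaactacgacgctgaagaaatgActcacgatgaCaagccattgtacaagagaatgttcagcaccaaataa
Of the 1614 stretches of 100 bases in the coding sequence, 94.9% are identical in both genes, and 84 bases before the start codon are identical as well. The sources used here do not say how reads that match both were counted. The level and fold change of HXT6 and HXT7 summed are therefore given too, and other values for either gene carry this uncertainty. No other pair of members reached such identity: HXT4 with HXT6 or HXT7 shared 82.8% of aligned bases, HXT1 with HXT3 82.5%, and the sensors SNF3 and RGT2 shared 69.2%.

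Upstream sequence was read for letters that the known regulators recognise. The motifs were CGGANNA for Rgt1, the core of the Mig1 site as GGGG after CC, CT, GC or GT, and the stress response element AGGGG, each on both strands, in the 1000 bases before each start codon. No matches to different motifs overlapped in the 9 members. HXT3 had 9 matches to the Rgt1 motif and HXT1 had 8. Among 6542 upstream regions of this length, 1 had at least 9 (HXT3 itself, 0.0153%) and 2 had at least 8 (0.0306%), whereas 66.9% had at least 1. HXT5 had 4 matches, HXT2, HXT4 and HXT6 had 3 each, HXT7 had 2, and SNF3 and RGT2 had 0. The Mig1 core was present 4 times before HXT2 and before HXT4, a number reached by 0.780% of regions, 3 times before HXT6 and 2 times before SNF3, HXT1, HXT3 and HXT7. The stress response element was found 5 times before HXT6, 4 times before HXT7 and 2 times before HXT5. At least as many were found in 0.688%, 2.22% and 21% of regions, and at least 1 in 54.7%. The 300 bases that begin at position -500 from the start codon are shown for HXT1 and HXT3, which hold the most Rgt1 matches, and for HXT5, whose fold change was the highest, with motif matches in capitals. The positions are chrVIII:292826-293125 for HXT1, chrIV:1164861-1165160 for HXT3 and chrVIII:296648-296947 for HXT5 (build R64, minus strand), and the window before HXT1 runs into the model YHR095W. For the carriers on chromosomes IV and VIII, the 1000 bases before HXT4, HXT5 and HXT6 also run into models, AHT1, YHR097C and YDR344C. The Rgt1 matches of HXT6 at -911 and -904 and its stress response elements at -876, -770 and -743 lie in YDR344C. The Rgt1 matches of HXT1 at -777, -736, -484, -454 and -399 lie in YHR095W. In AHT1 lie the Rgt1 matches of HXT4 at -650 and -425, its Mig1 cores at -498 and -466 and its stress response element at -519.
HXT1: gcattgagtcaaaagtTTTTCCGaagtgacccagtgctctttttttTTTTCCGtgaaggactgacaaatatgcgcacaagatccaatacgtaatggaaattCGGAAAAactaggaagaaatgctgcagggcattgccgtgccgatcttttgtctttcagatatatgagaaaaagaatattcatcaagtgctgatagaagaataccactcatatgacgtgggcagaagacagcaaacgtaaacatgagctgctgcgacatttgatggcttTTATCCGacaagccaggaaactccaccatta
HXT3: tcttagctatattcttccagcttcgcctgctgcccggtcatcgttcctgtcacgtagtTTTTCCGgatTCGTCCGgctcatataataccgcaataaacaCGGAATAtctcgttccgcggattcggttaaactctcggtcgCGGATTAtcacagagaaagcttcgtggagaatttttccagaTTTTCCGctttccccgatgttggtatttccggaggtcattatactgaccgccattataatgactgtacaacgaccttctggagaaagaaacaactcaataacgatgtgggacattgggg
HXT5: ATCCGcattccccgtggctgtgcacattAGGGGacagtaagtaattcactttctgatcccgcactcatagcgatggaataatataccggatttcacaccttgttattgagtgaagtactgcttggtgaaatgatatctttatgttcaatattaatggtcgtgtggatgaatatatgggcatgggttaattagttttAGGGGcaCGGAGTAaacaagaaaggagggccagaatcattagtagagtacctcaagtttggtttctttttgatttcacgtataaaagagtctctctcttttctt
The windows of HXT1 and HXT3 hold 4 and 5 matches to the Rgt1 motif and none to the other motifs. That of HXT5 holds 1 Rgt1 match and 2 stress response elements, and its first 5 capitals are the end of another Rgt1 match. A match to the Rgt1 motif was in 29.0% of all windows at this distance and a stress response element in 22.4%. A match describes letters in a window and does not show that a factor binds there.

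**Figure D1:**
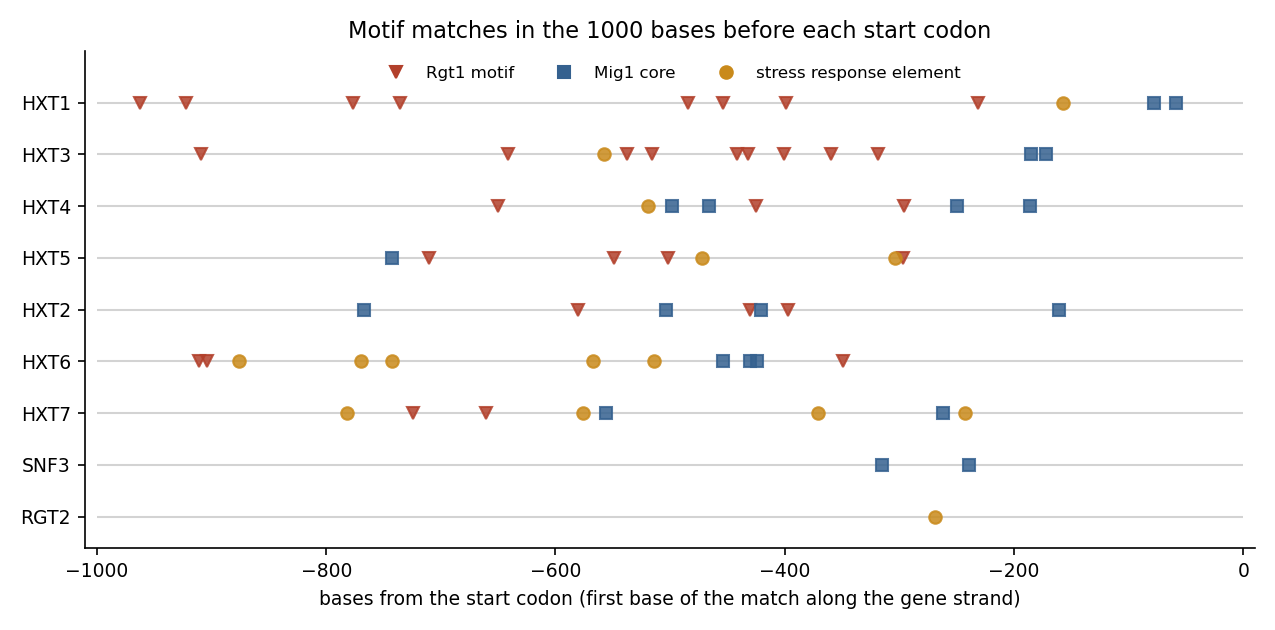
Positions of matches to the Rgt1 motif, the Mig1 core and the stress response element, as bases from the start codon, with 1 line for each member. HXT1 and HXT3 carry 8 and 9 matches to the Rgt1 motif, and SNF3 and RGT2 carry 0.

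The libraries held 24091037 to 58506447 counts in mcd1-1 and 22331070 to 44217331 in WT. A count of 0 allows 3 counts, or 0.0513 to 0.134 CPM (counts per 1e+06 counts), for counting error only, and each member lay far above this floor in each library. In both groups, libraries A and B stood apart from C and D. Within a group, chi-square per degree of freedom between libraries was 11.7 to 101 within A and B or C and D, and 314 to 539 across them, and the labels do not say what these sets are. Values within each set are therefore given for the members where they differ. MCD1 itself was at 312 ± 44.6 CPM in mcd1-1 and 80.3 ± 5.2 CPM in WT (mean ± SD, n = 4), and since transcripts of mcd1-1 are counted in the same row this checks no label. The 6 a-cell genes looked for, such as the receptor gene STE2, summed to 648 to 930.4 CPM in mcd1-1 and 957 to 1138 CPM in WT. In edgeR 0 of them were called in either direction, with 0 higher and 1 lower at an unadjusted p under 0.05. DESeq2 called 1 lower and limma-voom none, and the replicate block gave 2 higher and 3 lower. Of all tested genes, 20.7% were called higher and 19.7% lower in edgeR, or 29.4% and 30.2% with that block. Of the 4 alpha-cell genes 3 rose in edgeR, and 4 rose with the replicate block, by DESeq2 and by limma-voom. Together the alpha-cell genes summed to 108 to 146 CPM in mcd1-1 and 35.7 to 45.9 CPM in WT. The part of either list in the results was not tested.

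Both sensors and HXT5 rose in mcd1-1, HXT1 fell, and HXT2, HXT3, HXT4, HXT6 and HXT7 were not called when all 8 libraries were fitted without a block. That made 3 of 9 members higher and 1 of 9 lower, where 20.7% of all tested genes were higher and 19.7% lower. The median log2 fold change was 0.51 over the 9 members, 0.07 over the 7 carriers and -0.01 over all genes. Of the 7 carriers 1 was higher, 1 was lower and 5 were not called. With the replicate letter as a block HXT6 and HXT7 were also called, which made 5 higher and 1 lower, against 29.4% and 30.2% of all genes. In either direction the calls covered 40.4% of all genes without a block and 59.5% with it. With the set as a block the members gave the same counts, where 33.7% of genes were higher and 34.2% lower (67.8% in either direction). A and B alone gave 3 members higher and none lower, where 34.8% of genes were higher and 32.9% lower (67.7%), with 0 members lower at an unadjusted p under 0.05. C and D alone gave 6 higher and 1 lower, where 38.8% and 37.1% of genes were called (75.9%). The 4 members called without a block had no overlap between groups: for SNF3, RGT2 and HXT5 the lowest mcd1-1 library exceeded the highest WT library, and for HXT1 the highest mcd1-1 library was under the lowest WT library, as in 22.1% and 21.0% of all genes. CPM values are scaled by TMM, fold changes are mcd1-1 over WT, and adjusted p-values come from the quasi-likelihood test of edgeR with the Benjamini-Hochberg method across the 6558 genes and a threshold of 0.05. In bulk RNA, fewer cells that express a gene and less RNA per cell cannot be told apart.

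**Figure D2:**
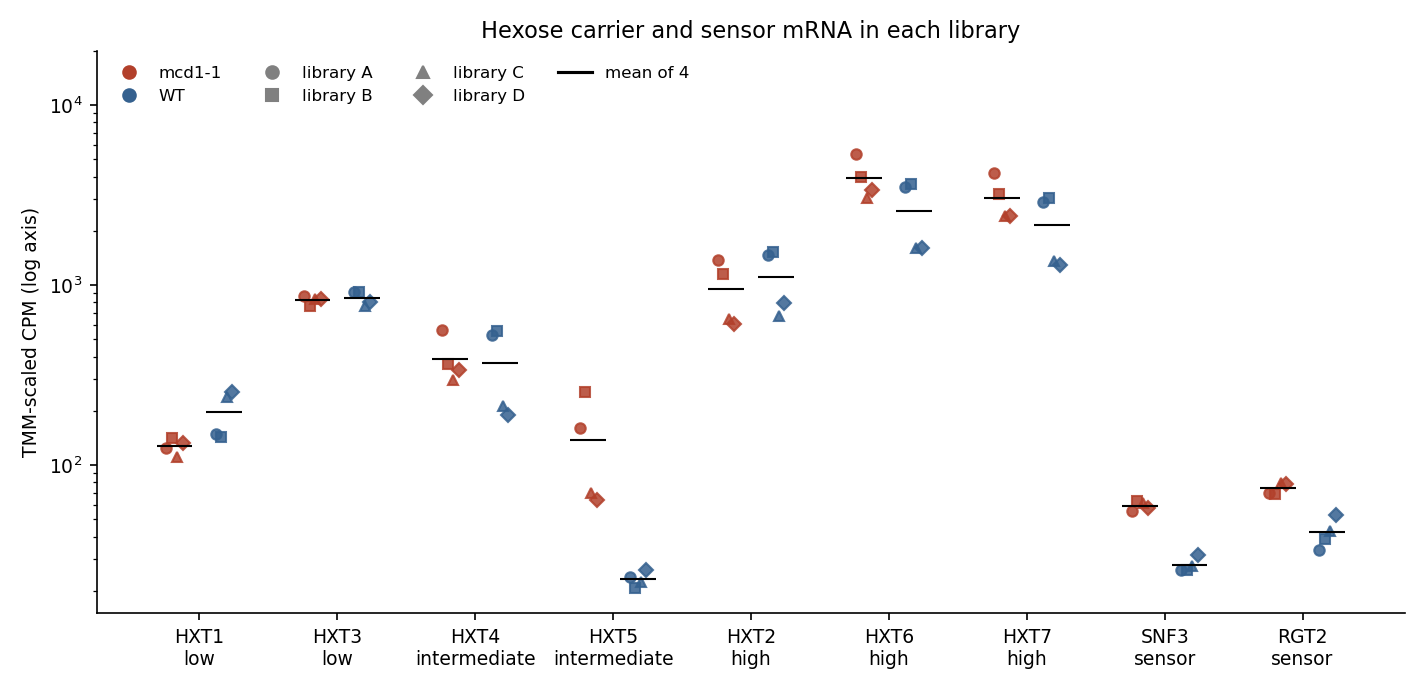
TMM-scaled CPM on a log axis for each member in mcd1-1 and WT, with 1 point for each library and a line at the mean of 4. SNF3, RGT2 and HXT5 are higher and HXT1 is lower in all 4 mcd1-1 libraries than in any WT library, and libraries A and B lie above C and D for HXT2, HXT4, HXT6 and HXT7 in WT.

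The sensor genes are longer than those of the carriers, 2655 bases for SNF3 and 2292 for RGT2 against 1626 to 1779 for the carriers, and encode the long cytoplasmic tails through which Snf3 and Rgt2 signal. SNF3 (YDL194W, chromosome IV, 111580 to 114234, build R64), the sensor of low glucose, was at 55.4, 63.2, 61.1 and 57.7 CPM in mcd1-1 A to D, against 26.0, 26.1, 27.6 and 31.4 CPM in WT A to D. Every mcd1-1 library was well above every WT library. Its log2 fold change was 1.10 ± 0.12 (SE), a 2.14-fold rise, with an adjusted p of 0.000197 in edgeR. RGT2 (YDL138W, chromosome IV, 213351 to 215642), the sensor of high glucose, was at 69.7, 68.8, 79.5 and 78.8 CPM in mcd1-1, against 33.8, 38.7, 43.1 and 52.9 CPM in WT. Again the groups did not overlap, although WT D was higher than the other WT libraries. The log2 fold change was 0.82 ± 0.15, a 1.76-fold rise (edgeR adjusted p = 0.00313). Both rises were present in each set alone, at 1.19 ± 0.13 with A and B and 1.04 ± 0.08 with C and D for SNF3, and at 0.93 ± 0.12 and 0.75 ± 0.09 for RGT2. Per length RGT2 was the more abundant in both groups, at 32.4 ± 2.49 and 22.3 ± 1.31 CPM per kb for RGT2 and SNF3 in mcd1-1 and at 18.4 ± 3.55 and 10.5 ± 0.952 CPM per kb in WT (mean ± SD, n = 4). The ratio of RGT2 to SNF3 per length was 1.26 to 1.58 in mcd1-1 and 1.51 to 1.95 in WT, so that the ranges overlapped. The sensors were the least abundant members per length in mcd1-1, and in WT HXT5 stood between them.

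Of the low-affinity carriers HXT1 fell and HXT3 was not called, and the difference between them was not tested. HXT1 (YHR094C, chromosome VIII, 290913 to 292625), the carrier gene best known for induction by high glucose, was at 124, 141, 111 and 132 CPM in mcd1-1 A to D, against 149, 143, 239 and 253 CPM in WT A to D. The groups did not overlap, but WT B was only just above mcd1-1 B, and the gap was wide in C and D alone. HXT1 fell by 0.63 ± 0.21 on the log2 scale (edgeR adjusted p = 0.0429). The call was lost without any of 6 libraries, namely each mcd1-1 library and WT C and D (adjusted p = 0.0907 to 0.132), under upper-quartile scaling (0.0884), library size alone (0.331), limma-voom (0.0597) and a stricter filter (0.0593), and with A and B only (log2 fold change -0.14 ± 0.11, adjusted p = 0.299), while C and D gave -0.98 ± 0.08. The difference between the sets, C and D minus A and B, was -0.88 ± 0.14 (adjusted p = 0.00294 for the interaction in edgeR, where 36.7% of all genes were called). Relative to the median of all genes, which upper-quartile scaling moved to 0.13 and library size alone to 0.33, HXT1 stood at -0.60 to -0.62 under these scalings and under TMM and RLE.

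HXT3 (YDR345C, chromosome IV, 1162957 to 1164660), the other low-affinity carrier, was at 868, 759, 834 and 840.0 CPM in mcd1-1 and at 911, 912, 764 and 800.0 CPM in WT. The groups overlapped, and the libraries of each group lay close together. The log2 fold change was -0.04 ± 0.14 (edgeR adjusted p = 0.861), and it was above 0 with library size alone (0.30), with upper-quartile scaling (0.09), with C and D only (0.13) and without either of 2 libraries. The counts of HXT3 over those of HXT1 in the same library, which need no scaling, were 7.0, 5.38, 7.50 and 6.36 in mcd1-1 A to D, against 6.12, 6.39, 3.19 and 3.16 in WT A to D. The ratio thus overlapped in A and B and was higher in mcd1-1 in C and D.

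HXT5 had the highest fold change of the 9 members. HXT5 (YHR096C, chromosome VIII, 294669 to 296447) was at 160.0, 254, 69.4 and 64.1 CPM in mcd1-1, against 23.9, 20.8, 22.3 and 26.2 CPM in WT. WT libraries were close to each other, whereas mcd1-1 A and B stood above C and D, and the lowest mcd1-1 library was still above the highest WT library. The log2 fold change was 2.55 ± 0.43, a 5.87-fold rise (edgeR adjusted p = 0.00184). Within sets it was 3.21 ± 0.22 with A and B and 1.49 ± 0.09 with C and D, and the difference between these was -1.76 ± 0.28 (adjusted p = 0.00260 for the interaction). Per length HXT5 ranked 2617 of the 6558 genes in mcd1-1, against 5882 in WT.

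HXT4 (YHR092C, chromosome VIII, 287081 to 288811) was not called over all libraries. This carrier gene was at 562, 362, 296 and 336 CPM in mcd1-1, against 524, 555, 211 and 189 CPM in WT. Libraries A and B were the higher ones in each group, so that the groups overlapped, yet in C and D both mcd1-1 libraries were above both WT libraries. The log2 fold change over all 8 libraries was 0.07 ± 0.39 (edgeR adjusted p = 0.898). With C and D only it was 0.70 ± 0.08 (adjusted p = 6.52e-05), with A and B only -0.23 ± 0.22 (adjusted p = 0.384), and the difference between sets was 0.89 ± 0.26 (adjusted p = 0.0265 for the interaction).

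The near-identical high-affinity genes HXT6 and HXT7 were the most abundant members in every library. HXT6 (YDR343C, chromosome IV, 1159608 to 1161320) was at 5321, 3975, 3026 and 3374 CPM in mcd1-1, against 3499, 3640.5, 1609.5 and 1609 CPM in WT. HXT7 (YDR342C, chromosome IV, 1154216 to 1155928) was at 4168, 3212, 2419.6 and 2426 CPM in mcd1-1, against 2884, 3039, 1354 and 1292 CPM in WT. Summed, the pair was at 9489, 7186, 5445 and 5800.4 CPM in mcd1-1, against 6383, 6679.7, 2964 and 2901 CPM in WT. The groups overlapped, because WT A and B were above mcd1-1 C and D, but within each set every mcd1-1 library was above both WT libraries. The log2 fold changes were 0.60 ± 0.33 for HXT6 (edgeR adjusted p = 0.175) and 0.51 ± 0.34 for HXT7 (adjusted p = 0.248), not called, and their summed counts fitted as 1 gene gave 0.56 ± 0.34 (adjusted p = 0.208). With the letters as a block both genes were called, at 0.68 ± 0.21 (adjusted p = 0.0255) and 0.59 ± 0.19 (adjusted p = 0.0332). The set as a block in edgeR gave 0.69 ± 0.17 (adjusted p = 0.00625) and 0.595 ± 0.16 (adjusted p = 0.00842). C and D alone gave 1.03 ± 0.09 and 0.91 ± 0.08, and A and B alone 0.38 ± 0.33 and 0.32 ± 0.30 (adjusted p = 0.323 and 0.373). The difference between the sets did not pass the threshold for either gene (adjusted p = 0.113 and 0.112 for the interaction). Counts of HXT6 over HXT7 were 1.24 to 1.39 in mcd1-1 and 1.19 to 1.25 in WT.

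HXT2 (YMR011W, chromosome XIII, 288079 to 289704), the high-affinity carrier outside that pair, was at 1378, 1147, 645 and 609 CPM in mcd1-1, against 1459, 1519.9, 674 and 789 CPM in WT. Within each set both mcd1-1 libraries were below both WT libraries, and across sets the groups overlapped. The log2 fold change was -0.23 ± 0.36 (edgeR adjusted p = 0.633) and -0.23 ± 0.14 with the replicate block (adjusted p = 0.184), and it turned positive under library size alone (0.11). With TMM scaling its value was thus below 0 and those of HXT6 and HXT7 were above 0, and the difference between these genes was not tested.

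**Figure D3:**
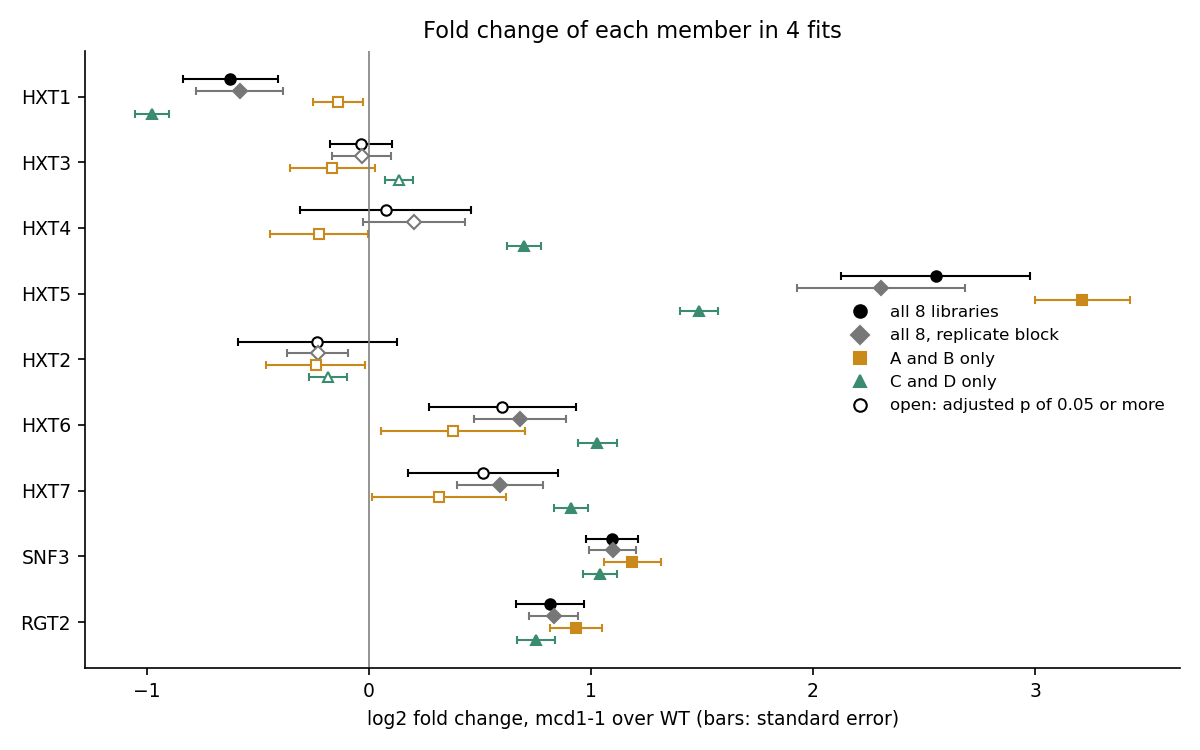
Log2 fold change of each member, mcd1-1 over WT, with its standard error, in 4 fits: all 8 libraries, all 8 with the replicate letter as a block, A and B only, and C and D only; open symbols have an adjusted p of 0.05 or more. SNF3, RGT2 and HXT5 lie above 0 in each fit, and HXT1 moves to -0.14 with A and B only.

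In mcd1-1 the order of the mean levels per length was HXT6, HXT7, HXT2, HXT3, HXT4, HXT5, HXT1, RGT2 and SNF3, at 2291 ± 590, 1784 ± 484, 581 ± 233, 484 ± 27.2, 225 ± 68.3, 76.9 ± 50.4, 74.2 ± 7.42, 32.4 ± 2.49 and 22.3 ± 1.31 CPM per kb (SD, n = 4). In WT it was HXT6, HXT7, HXT2, HXT3, HXT4, HXT1, RGT2, HXT5 and SNF3, at 1512 ± 661, 1251 ± 554, 683 ± 271, 497 ± 44.6, 213 ± 113, 114 ± 34.0, 18.4 ± 3.55, 13.1 ± 1.3 and 10.5 ± 0.952 CPM per kb. HXT6 with HXT7, and HXT2 with HXT3, had overlapping ranges of mean ± SD in both groups, as did HXT5 with HXT1 in mcd1-1 and HXT7 with HXT2 and HXT4 with HXT1 in WT, while the other neighbours differed by more than their spread. That overlap takes no account of the shared libraries: in each library HXT6 was above HXT7, and in each WT library HXT7 was above HXT2. By level per length HXT6 ranked 27 and HXT7 ranked 41 among all genes in mcd1-1, against 111 and 143 in WT.

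Set against each other, the low-affinity carriers took a smaller part of carrier mRNA in mcd1-1 within each set. HXT1 and HXT3 together made up 7.88, 9.14, 12.8 and 12.5% of the counts of HXT1 to HXT7 in mcd1-1 A to D, against 11.2, 10.7, 20.6 and 21.2% in WT A to D. The means were 10.6 ± 2.43% and 15.9 ± 5.75% (SD, n = 4), a difference of -5.37 percentage points, and -2.46 points with A and B and -8.28 points with C and D. Over all libraries the groups overlapped, since WT A and B were below mcd1-1 C and D, while within each set they did not. HXT2, HXT6 and HXT7 made up 86.4, 84.6, 82.3 and 82.4% in mcd1-1, against 83.0, 83.4, 74.6 and 74.4% in WT. Of the same counts of all 7 carriers HXT2 took 7.83 to 11.6% in mcd1-1 and 13.8 to 15.9% in WT, with no overlap. HXT6 took 40.4 to 43.4% in mcd1-1 and 32.5 to 37.0% in WT, also with none. For its near copy HXT7 the ranges were 31.2 to 33.1% and 26.1 to 30.9%, and for HXT5 0.82 to 2.58% and 0.21 to 0.53%. Neither of these overlapped, while the shares of HXT1, HXT3 and HXT4 did. The summed low-affinity level was 901 to 992 CPM in mcd1-1 and 1003 to 1059 CPM in WT. The summed high-affinity level was 6090.4 to 10867 CPM in mcd1-1 and 3638 to 8199.6 CPM in WT. All 7 carriers together took 1.37, 1.2, 0.81 and 0.86% of all counts in mcd1-1, against 0.84, 0.86, 0.43 and 0.45% in WT, a difference of 0.41 points. With TMM scaling the difference was 0.21 points, and in both cases the groups overlapped. No p is given for these sums, because the members were chosen with earlier results known.

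**Figure D4:**
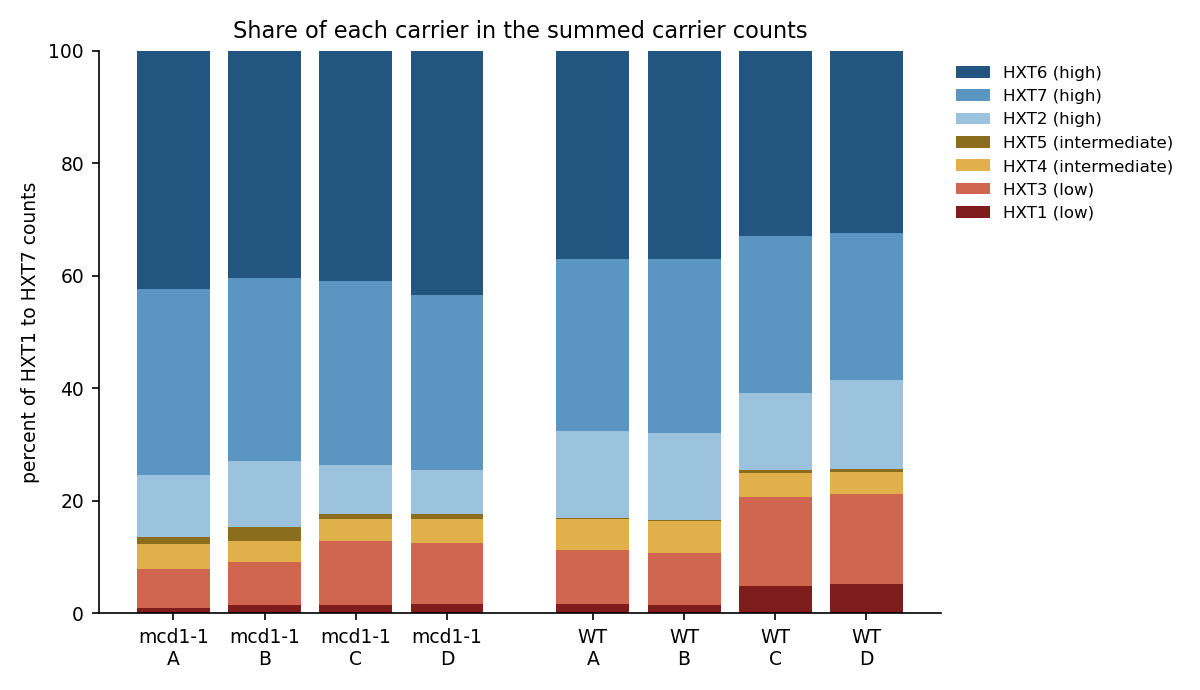
Share of each carrier in the summed counts of HXT1 to HXT7, as percent, for mcd1-1 A to D and WT A to D. The low-affinity part, in red, is 7.88 to 12.8% in mcd1-1 and 10.7 to 21.2% in WT, and HXT6 with HXT7 makes up the largest part of each bar.

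Of the carrier genes 6 lie in clusters on chromosomes IV and VIII. On chromosome IV, HXT7, HXT6 and HXT3 lie on the minus strand within 10445 bp, and none of them was called without a block. The model between HXT6 and HXT3, YDR344C, was not called (0.09 ± 0.21, edgeR adjusted p = 0.769), and the models on either side fell: YDR341C fell by 0.99 ± 0.27 (adjusted p = 0.0167) and SVF1, a gene for survival under stress, fell by 0.72 ± 0.18 (adjusted p = 0.0106). Library size alone ended both of these calls (adjusted p = 0.0543 and 0.0770), and the call of YDR341C was also lost without mcd1-1 A (adjusted p = 0.0662). On chromosome VIII, HXT4, HXT1 and HXT5 lie on the minus strand within 9367 bp, so that HXT1, which fell, is flanked by HXT5, which rose. YHR095W, between HXT1 and HXT5 on the plus strand, rose by 1.37 ± 0.24 (adjusted p = 0.00251) at a low level, 2.75 ± 0.283 CPM in mcd1-1 and 1.06 ± 0.268 CPM in WT (SD, n = 4). AHT1, MSR1 and YHR097C, the other models there, were not called (adjusted p = 0.223, 0.429 and 0.735). None of the 9 members overlaps another model in the table.

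Of the 11 genes of the glucose induction pathway, which act between the sensors and the carriers, 2 rose and none fell, where 20.7% of all genes were higher and 19.7% lower, with 1 lower at an unadjusted p under 0.05 and none lower by DESeq2 or limma-voom, and with the replicate block 4 rose and 2 fell, where 29.4% of all genes were higher and 30.2% lower. The count of higher genes was near the share of all genes. RGT1, the repressor of HXT genes, was at 194 ± 64.1 CPM in mcd1-1 and 89.8 ± 20.0 CPM in WT (SD, n = 4), a rise of 1.11 ± 0.26 on the log2 scale (edgeR adjusted p = 0.00891). MTH1, a corepressor that works with Rgt1, rose by 1.05 ± 0.37 (adjusted p = 0.0459), a call lost without mcd1-1 A, mcd1-1 B, WT C or WT D (adjusted p = 0.0789 to 0.106). AKR1, which anchors the Yck kinases at the membrane, had -0.40 ± 0.17 (adjusted p = 0.0938) and CDC53, the cullin of the ubiquitin ligase with Grr1, had 0.36 ± 0.17 (adjusted p = 0.109), neither called. With the replicate block CDC53 was called, at 0.35 ± 0.10 (adjusted p = 0.0234), and with the set as a block AKR1 was called too (adjusted p = 0.0408). For AKR1, A and B alone gave -0.79 ± 0.12 (edgeR adjusted p = 0.000455), and C and D alone 0.04 ± 0.05 (adjusted p = 0.533). The median over the list was -0.18.

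Of the 16 genes of Snf1 signalling and glucose repression 5 rose, 3 fell and 8 were not called, where 20.7% of all genes were higher and 19.7% lower, and with the block 8 rose and 5 fell, where 29.4% and 30.2% were. The count of lower genes was near the share of all genes in both fits. The median log2 fold change was 0.23, and without WT C 3 rose. MIG3, a repressor related to Mig1, rose by 0.82 ± 0.14 (edgeR adjusted p = 0.00185) and REG2, a regulatory subunit of the Glc7 phosphatase, by 2.09 ± 0.51 (adjusted p = 0.0102). SNF4, the activating subunit of Snf1, fell by 0.93 ± 0.17 (adjusted p = 0.00265) and the repressor gene NRG2 fell by 1.33 ± 0.29 (adjusted p = 0.00595). Among the 4 hexose kinase genes, with a median of 0.50, HXK2, the main hexokinase in glucose, fell to 726 ± 138 CPM in mcd1-1, against 1416 ± 94.9 CPM in WT (SD, n = 4; adjusted p = 0.00307), and HXK1, the hexokinase known for repression by glucose, rose to 812 ± 210.4 CPM in mcd1-1, against 389 ± 120.2 CPM in WT (adjusted p = 0.0125). GLK1, a glucokinase gene, had 0.84 ± 0.48 (adjusted p = 0.184), called with the block (adjusted p = 0.00390), and its relative EMI2 had 0.15 ± 0.37 (adjusted p = 0.770). REG2, HXK1 and GLK1 overlap another model, and whether the counting used strand is unknown.

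Minor carriers and glucose-repressed genes rose in most cases, against the 20.7% of all genes called higher. Of 11 minor carriers listed (HXT8 to HXT17 and GAL2) 10 were matched by name and tested, 8 rose, none fell in edgeR, DESeq2 or limma-voom or at an unadjusted p under 0.05, and the median log2 fold change was 1.49. HXT9 (2.22 ± 0.12), HXT10 (2.71 ± 0.18), HXT11 (1.82 ± 0.14) and HXT14 (2.04 ± 0.22) had the smallest p. HXT9 and HXT11 share 97.2% of aligned bases and HXT14 overlaps another model, so their values are uncertain, as are those of HXT13 with HXT17 (97.0%) and HXT15 with HXT16 (99.9%). These genes stayed at low levels: the 10 together were at 276 to 306 CPM in mcd1-1 and 99.9 to 125 CPM in WT. Of 12 glucose-repressed genes 11 rose and none fell by the same tools and thresholds, with a median of 1.59. They included CAT8, an activator of gluconeogenic genes (1.47 ± 0.16), MLS1, malate synthase (1.85 ± 0.21), PCK1 (1.5 ± 0.19) and FBP1 (2.13 ± 0.32), both of gluconeogenesis, and ADH2 was not called. Of 7 genes of carrier ubiquitination and endocytosis 3 rose and none fell by these tools and thresholds, with a median of 0.63. With the replicate block 5 rose, where 29.4% of all genes were higher. CSR2, an adaptor for ubiquitination of carriers, rose by 2.30 ± 0.32 (edgeR adjusted p = 0.000767), ROG3, another adaptor, by 0.78 ± 0.22 (adjusted p = 0.0191) and BUL1 by 0.63 ± 0.17 (adjusted p = 0.0158). ECM21 had 0.64 ± 0.26 (adjusted p = 0.0799), called with the block (adjusted p = 0.00251).

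**Figure D5:**
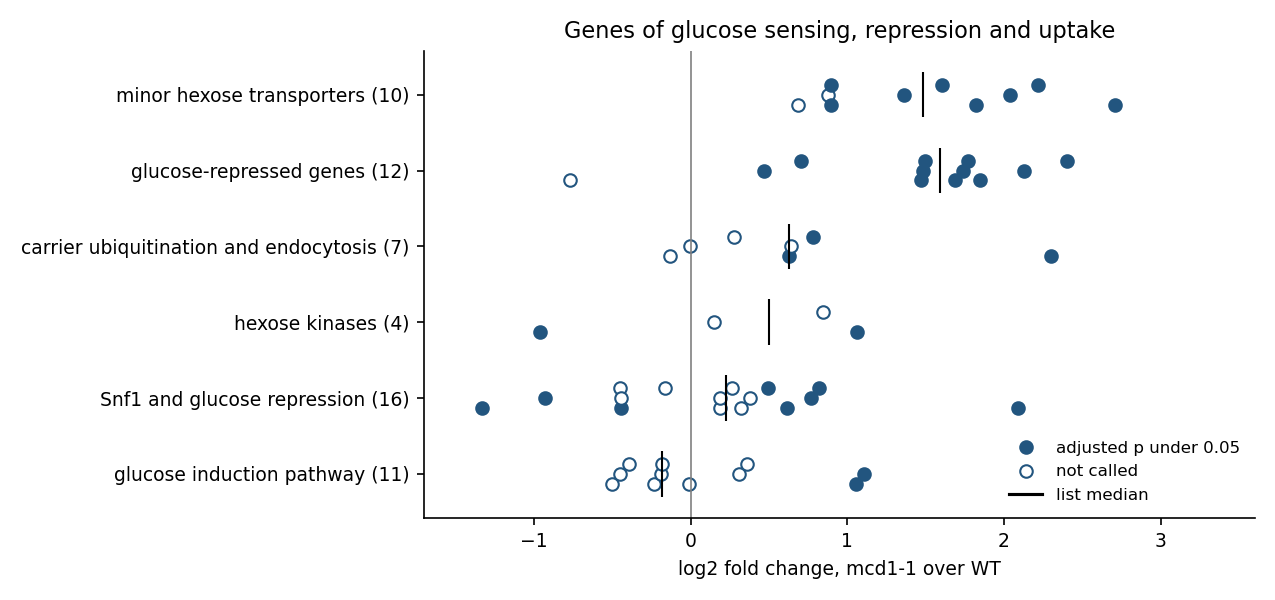
Log2 fold change, mcd1-1 over WT, of the genes in each list, with the number of genes tested in parentheses, filled symbols for an adjusted p under 0.05 and a line at the list median. Of the minor carriers 8 of 10 and of the glucose-repressed genes 11 of 12 are called and above 0, and the glucose induction pathway has a median of -0.18.

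Other genes with a similar profile were found by the root mean square difference of centred log2 CPM over the 8 libraries, among 6030 genes of at least 10 mean CPM that are no members. The closest to HXT5 were YBR116C, CSR2 and SPI1, at 0.17, 0.21 and 0.22, where HXT5 itself varied by 1.3 on the same measure. CIN5 was the closest to HXT6 (0.094) and to HXT7 (0.11). For HXT1 these were GIS4 (0.10), YPK3 (0.11) and YML018C (0.14), and for SNF3 LCB5 (0.068), YOR389W (0.071) and SSL2 (0.088). HXT16, a minor carrier, was the closest to RGT2 (0.082), although reads could be split between it and HXT15. For HXT2 the closest was HAP3 (0.11), for HXT4 ALG13 (0.15) and for HXT3, whose own variation was 0.096, YLR317W (0.037).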

How the data were processed

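Poly(A) RNA was measured in 4 mcd1-1 and 4 WT samples. The authors deposited 1 table of read counts by gene model, without normalisation. Build R64 is named in the submitters' processing notes, with featureCounts 1.6.0, STAR 2.5.3a, Trim Galore 0.4.3, bcl2fastq 2.9 and Picard; the sources used here do not give their settings or the strand. As received, 4 lines of the table were empty. The start and end of all 9 members matched RefSeq R64, from which sequences were read with Biopython 1.88.

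Counts were kept by filterByExpr, scaled by TMM (factors 1.09 to 1.21 in mcd1-1, 0.879 to 0.902 in WT) and tested in edgeR 4.0.16 (R 4.3.3), 2-sided, with group as the only term. The fit was tried beforehand on simulated data. The simulated libraries had no sets, so the trial does not cover the difference between A and B and C and D. Standard errors follow from the F statistic. Named genes were the members, MCD1, up to 4 genes with the smallest p in each list, models in or beside the carrier clusters (members within 10000 bp) and the 3 genes most like each member in profile. Lists come from general knowledge of yeast. The members, lists and settings were chosen with earlier results of these data known. Replicate letters were checked by correlating deviations from the group mean between mcd1-1 and WT libraries. The same letters gave 0.606, 0.452, 0.633 and 0.598, the other letter of the same set 0.490 to 0.653, and letters across sets -0.643 to -0.448. These values show a shared set but no pairing by letter within it. The main fit therefore did not pair the samples, and the letter was a block in an alternative only. The main fit also held no term for the set, so the spread between sets is part of its error. Alternatives were DESeq2 1.42.0, limma-voom (limma 3.58.1), RLE, upper-quartile and library-size scaling, no filter, at least 10 CPM in 4 libraries, the replicate letter or the set as a block, each set alone, leaving out each library, and HXT6 and HXT7 summed. The interaction of genotype and set was added after seeing the data.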

Additional observations from a re-analysis of the deposited data

Results flagged for a closer look

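For 3 members the fold change differed between the sets of libraries, by the interaction of genotype and set in edgeR. The sets, A and B against C and D, were defined from these data and are not groups of the study. In this test 36.7% of all genes were called, so the count of 3 of 9 members was near the share of all genes. Fold change in C and D minus that in A and B was -0.88 for HXT1 (adjusted p = 0.00294), 0.89 for HXT4 (adjusted p = 0.0265) and -1.76 for HXT5 (adjusted p = 0.00260). No library of a group stood out from the other 3 by Dixon's criterion in 28 tests of member levels and carrier shares. Where levels follow the sets, an extreme library has a near neighbour, so this criterion could hardly single out a library. It does not show that the libraries of a group are alike.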

How the results depend on the processing

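The calls of SNF3, RGT2 and HXT5 held under all 20 alternatives. The count of members called higher was 5 with the replicate block, 5 with the set block and 6 with C and D only, and 3 when any 1 library was left out. The replicate block changed no other call among the members than those of HXT6 and HXT7, and library size alone also called HXT6 (0.94, adjusted p = 0.0383). The count called lower was 0 in edgeR under upper-quartile scaling, library size alone, the filter of 10 CPM and A and B only, and 0 by limma-voom, and it was 0 to 1 when 1 library was left out. In these, 1 member was lower at an unadjusted p under 0.05, except that library size alone, A and B only and leaving out mcd1-1 A, mcd1-1 C, WT C or WT D gave 0, and DESeq2 called 1. The cause was not tested. Directions turned for genes that were not called in the main fit. HXT2 was at 0.11 under library size alone. HXT3 was at 0.0919 under upper-quartile scaling, 0.30 under library size alone, 0.0100 with the filter of 10 CPM, 0.13 with C and D only and -0.0832 to 0.0498 without 1 library. HXT4 was at -0.23 with A and B only and -0.14 to 0.34 without 1 library. AKR1 was at 0.0370 with C and D only, MSR1 at 0.20 under library size alone, EMI2 at -0.0400 to 0.35 without 1 library, and YHR097C at 0.0314 under upper-quartile scaling, 0.24 under library size alone, 0.0723 with A and B only and -0.23 to 0.0564 without 1 library. The difference in low-affinity share was -7.11 to -3.60 points and that in the summed share of all counts 0.31 to 0.50 points without 1 library, with 0.21 points under TMM scaling against 0.41 points unscaled. The low-affinity difference was -6.08 points with HXT4 counted as low affinity. Each member lay far above the limit that 3 counts allow, so the spread between libraries and not depth limits these values.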
